A study of Mus musculus with 6 samples.

Results

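Genes of caspases, Bcl2 family proteins and the regulators around them were followed in neural stem/progenitor cells transduced to overexpress Bmi1. The members are 35 listed genes, taken as probe sets that the platform annotation assigns to 1 gene only, and where a gene had several, the probe set with the highest mean over all arrays was used. Of these, 34 were measured, among 19938 named genes and 35557 probe sets on the array, and Ripk1, the kinase that links death receptors to survival or death signals, had no probe set of its own. RNA came from 6 neurosphere cultures, 1 per Affymetrix Mouse Gene ST 1.0 array, described in the design text as independent: 3 were transduced with an empty retroviral vector and 3 with the same type of vector, pCMMP, carrying Bmi1, the Polycomb gene. All cells came from CD1 mice, an outbred strain, aged 4 to 6 weeks, and were taken from the wall of the lateral ventricle. In both groups cells were sorted on the eGFP that the vector encodes and were grown at clonal density, with 2000 cells per well and EGF and FGF in the medium. The labels give the unflagged Bmi1 construct, while the study's text gives a FLAG-tagged one for the arrays, and which was used cannot be settled here. Since expression is driven by a retroviral vector, the cells are a model of added Bmi1 in culture, not of its normal level in the tissue. In all 6 arrays the labels' source field gives the other group than the title does, so groups were taken from the titles, which the transduction and genotype fields match. No source used here says which mice gave which culture, so the p-values rest on the spread among these cultures alone.

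Apoptosis runs along a pair of connected routes. On the mitochondrial route, BH3-only proteins sense damage and release Bak1 and its relatives from the hold of guardians such as Bcl2, Bcl2l1 (Bcl-xL) and Mcl1, the outer mitochondrial membrane opens, and the initiator Casp9 is activated. On the other route, death receptors recruit the adaptor Fadd and the initiator Casp8, which also cuts Bid and so feeds into the mitochondrial route. Casp1, Casp4 and Casp12 are inflammatory caspases, which act mainly in cytokine processing and lytic death. In the postnatal neurogenic niche, the Bcl2 family sets how many newly made cells survive.

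Of 3 genes read to check the labels, Bmi1 did not pass and Epha7 and Cdkn2a fell. The Bmi1 probe set, measured as log2 RMA expression, read 7.70, 8.40 and 8.31 in the empty vector arrays and 9.18, 8.36 and 8.42 in the Bmi1 arrays, so the groups overlapped (log2 difference 0.52, adjusted p = 0.38). The overexpression that the titles name thus rests on the labels and is not shown by this probe set. Cdkn2a, the Ink4a/Arf gene that Bmi1 is known to repress, fell by 1.08 on the log2 scale (adjusted p = 0.0012). Epha7, an Eph receptor gene that the study follows as a Bmi1 target, had log2 levels of 7.12, 7.16 and 6.93 with empty vector and 3.26, 3.25 and 3.23 with Bmi1 (log2 difference -3.82, adjusted p = 1.1e-04). It was not independent of the study's own reading of these arrays. Arrays correlated at 0.991 to 0.993 within groups and 0.985 to 0.987 between groups, with array medians of 4.37 to 4.45. Of the stem and progenitor cell markers, Vim, Fabp7, Sox2 and Nes were bright, with mean log2 levels of up to 12.3 in that list. Gfap and Prom1 of the same list had means of only 3.44 and 4.65. The oligodendrocyte lineage marker Olig1 and the astrocyte marker Aldoc were also bright, at 11.4 and 11.2, so these levels do not separate stem cells from glial cells. Of 13 measured stem and progenitor cell markers, 4 rose and 0 fell, beside 2.98% and 4.37% of named genes.

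Of the 34 measured members, 3 fell, 1 rose and 30 missed the threshold (limma over all 35557 probe sets, two-sided, Benjamini-Hochberg adjusted p under 0.05), which is 11.8% called beside 5.70% of all probe sets. Among named genes with 1 probe set each, the share called was 7.35%. The falls were in Casp12, Casp1 and Bcl2l1, and the rise was in Bid. Lower calls took 3.46% of all probe sets and 4.37% of named genes, higher calls 2.23% and 2.98%, and after each array was centred on its median the share of lower ones among all calls went from 60.8% to 71.2%. The median log2 difference of the members, Bmi1 minus empty vector, was 0.04 and that of all probe sets 0.02. The median size of the difference was 0.12 in both. Groups did not overlap for 12 members, 7 with all Bmi1 arrays higher and 5 with all lower, beside 26.6% of all probe sets and 31.3% of named genes. At an unadjusted p under 0.05 there were 11 members, beside 19.9% of all probe sets and 22.7% of named genes. The sizes were spread much as on the whole array: 26 of 34 members had a difference under 0.25 in size, beside 27021 of 35557 probe sets, and 3 had one of 0.5 or more, beside 2741 probe sets. In bulk RNA, fewer cells of a type and less RNA per cell cannot be told apart.

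**Figure D1:**
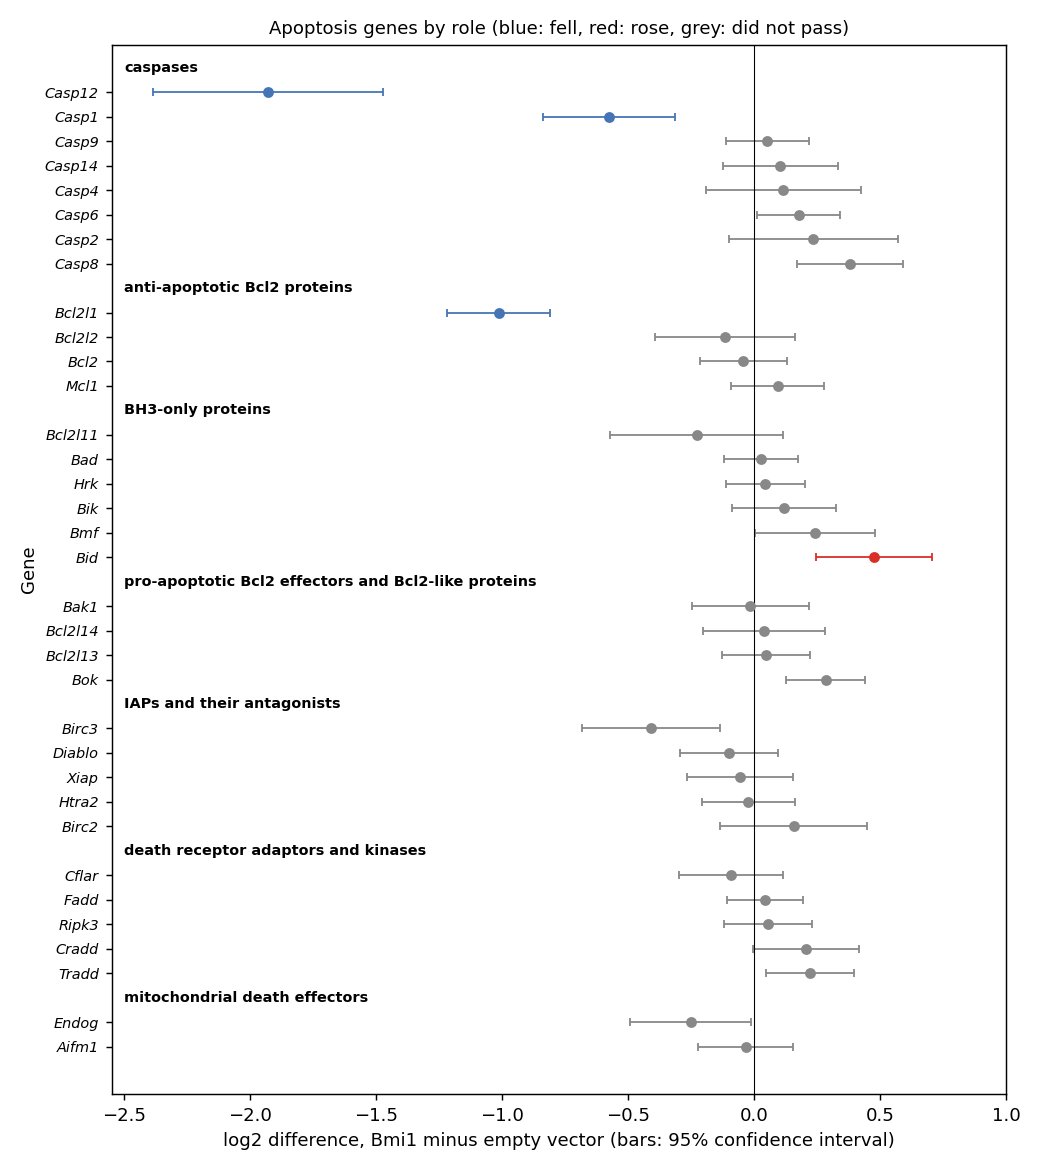
The log2 difference of each of the 34 measured members, Bmi1 minus empty vector (x axis), grouped by role (y axis), with bars for the 95% confidence interval. Casp12, at -1.93, and Bcl2l1, at -1.01, lie far left of the other members, and Bid lies farthest right at 0.48.

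The sequences just upstream of the 4 called genes are shown because Casp12 and Casp1 lie in the same gene cluster and both fell, while Bcl2l1 and Bid moved in opposite directions. Each is the 250 bases before an annotated transcription start, 5′ to 3′ on the gene's own strand, from RefSeq on GRCm38.p6, with CpG dinucleotides in capitals. Of the 34 members, 31 had a promoter in this table. The sequences are at chr9:5345226-5345475 (plus strand) for Casp12, chr9:5298267-5298516 (plus) for Casp1, chr2:152831729-152831978 (minus) for the third of the annotated Bcl2l1 starts and chr6:120916825-120917074 (minus) for Bid.
Casp12: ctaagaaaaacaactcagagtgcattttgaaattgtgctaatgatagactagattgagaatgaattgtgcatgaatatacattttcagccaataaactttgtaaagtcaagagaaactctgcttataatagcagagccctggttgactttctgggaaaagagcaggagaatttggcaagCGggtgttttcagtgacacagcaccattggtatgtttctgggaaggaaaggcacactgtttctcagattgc
Casp1: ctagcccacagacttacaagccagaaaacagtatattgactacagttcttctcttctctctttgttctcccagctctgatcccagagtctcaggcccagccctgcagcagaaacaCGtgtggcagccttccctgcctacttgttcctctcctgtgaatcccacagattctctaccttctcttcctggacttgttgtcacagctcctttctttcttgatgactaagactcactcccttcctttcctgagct
Bcl2l1: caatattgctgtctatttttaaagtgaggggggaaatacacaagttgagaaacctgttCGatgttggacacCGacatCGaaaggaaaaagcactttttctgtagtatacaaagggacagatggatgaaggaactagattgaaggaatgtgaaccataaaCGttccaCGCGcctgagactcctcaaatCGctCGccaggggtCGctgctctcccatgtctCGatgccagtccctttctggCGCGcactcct
Bid: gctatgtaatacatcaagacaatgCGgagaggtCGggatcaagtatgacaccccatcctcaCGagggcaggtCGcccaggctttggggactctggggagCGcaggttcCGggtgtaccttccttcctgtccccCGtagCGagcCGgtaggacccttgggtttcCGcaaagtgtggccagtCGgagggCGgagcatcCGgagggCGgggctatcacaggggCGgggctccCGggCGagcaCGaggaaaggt
The caspase sequences are poor in CpG and the Bid sequence is rich in it. Casp12 and Casp1 hold 1 CpG each, at percentile 13.3 of 32851 promoters of the same length (ties at their middle rank), and the median promoter holds 6. Bid holds 18, at percentile 79.3. The Bcl2l1 starts hold 0, 11 and 12. Of 6 motifs searched on both strands, the GC box GGGCGG occurred 3 times before Bid and is present in 32.7% of all promoters. The Casp12 sequence held 2 copies of CCAAT (33.8% of promoters) and 2 of the STAT motif TTCNNNGAA (7.02%), and Casp1 held 1 E-box CACGTG (6.02%). TATAAA (12.4%) and TGANTCA (6.75%) were found before none of these 4 genes, and the Bcl2l1 starts held none of the 6. These are letter matches only.

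Among the 8 caspases, 2 fell, 0 rose and 6 did not pass. The 2 that fell are both inflammatory caspases. Casp12, which is linked to inflammatory signalling and to stress of the endoplasmic reticulum, had log2 levels of 3.81, 4.04 and 4.53 in the empty vector arrays and 2.28, 2.27 and 2.05 in the Bmi1 arrays. Every Bmi1 array was far below every empty vector array. The mean went from 4.13 ± 0.37 to 2.20 ± 0.13 (SD, n = 3 each). The log2 difference was -1.93 (SE 0.19, 95% interval -2.38 to -1.47) or 3.80-fold, with an adjusted p of 0.0036 from limma. This took the probe set from percentile 46.4 to percentile 12.4 of all probe sets. No detection call comes with these values, so how much of the level of 2.20 is background cannot be given.

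Casp1, the protease that matures interleukin-1 beta, had log2 levels of 3.21, 3.32 and 3.51 in the empty vector arrays and 2.78, 2.90 and 2.64 in the Bmi1 arrays. The groups did not overlap, though the closest arrays lay near each other. The log2 difference was -0.58 (standard error 0.11, 95% interval -0.84 to -0.32, adjusted p = 0.033 from limma). The call was lost when any 1 of the 6 arrays was left out, with adjusted p-values of 0.056 to 0.11 and differences of -0.64 to -0.50. Fewer probe sets pass in such fits in general: 2.74% to 3.59% of all were called, beside 5.70% with all arrays. Casp4, another inflammatory caspase, encoded between them, had log2 levels of 2.46, 2.59 and 2.32 in the empty vector arrays and 2.34, 2.73 and 2.64 in the Bmi1 arrays. Its groups overlapped (log2 difference 0.12, 95% interval -0.19 to 0.42, adjusted p = 0.69), at levels among the lowest of all members.

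The initiator caspases did not pass. Casp8 had log2 levels of 4.36, 4.50 and 4.64 in the empty vector arrays and 4.89, 4.86 and 4.90 in the Bmi1 arrays. All Bmi1 arrays were higher, but the difference of 0.38 (95% interval 0.17 to 0.59) missed the threshold (adjusted p = 0.061 from limma). Casp9, the initiator of the mitochondrial route, had log2 levels of 6.57, 6.46 and 6.58 with empty vector and 6.61, 6.61 and 6.55 with Bmi1, a difference of 0.05 (95% interval -0.11 to 0.22, adjusted p = 0.74). Its arrays were interleaved. Casp2, a caspase of the response to DNA damage and errors of cell division, had a difference of 0.23 (adjusted p = 0.43), and the executioner Casp6 had one of 0.18, with all Bmi1 arrays higher (adjusted p = 0.22). Casp14, a caspase of the skin barrier, was dim, with a mean log2 level of 3.01 and a difference of 0.10 (adjusted p = 0.62).

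Of the 4 anti-apoptotic Bcl2 proteins, Bcl2l1 fell and the other 3 did not pass. Bcl2l1 had log2 levels of 8.12, 8.19 and 8.33 in the empty vector arrays and 7.11, 7.22 and 7.27 in the Bmi1 arrays. The groups were well apart, with every Bmi1 array below every empty vector array. The mean went from 8.21 ± 0.11 to 7.20 ± 0.08 (SD, n = 3 each). This is a fall of 2.02-fold, with a log2 difference of -1.01 (SE 0.08, 95% interval -1.22 to -0.81) and an adjusted p of 0.0022 from limma. The probe set remained among the brighter ones, at percentile 88.9 with empty vector and 80.5 with Bmi1. One probe set covers the gene, so the long form, which guards against death, and the short form, which promotes it, cannot be told apart.

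Bcl2, the founding guardian, had log2 levels of 6.26, 6.41 and 6.38 with empty vector and 6.30, 6.35 and 6.26 with Bmi1. The difference of -0.04 had a 95% interval of -0.22 to 0.13 (adjusted p = 0.80). Mcl1, a short-lived guardian, had log2 levels of 9.04, 9.08 and 9.20 with empty vector and 9.26, 9.20 and 9.13 with Bmi1, a difference of 0.09 (95% interval -0.09 to 0.28, adjusted p = 0.58). In both genes the arrays of the groups overlapped. Bcl2l2, which encodes Bcl-w, had a difference of -0.12 with a 95% interval of -0.39 to 0.16 (adjusted p = 0.65). The lower limits for these 3 genes, -0.22, -0.09 and -0.39, all lie above the whole interval of Bcl2l1.

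**Figure D2:**
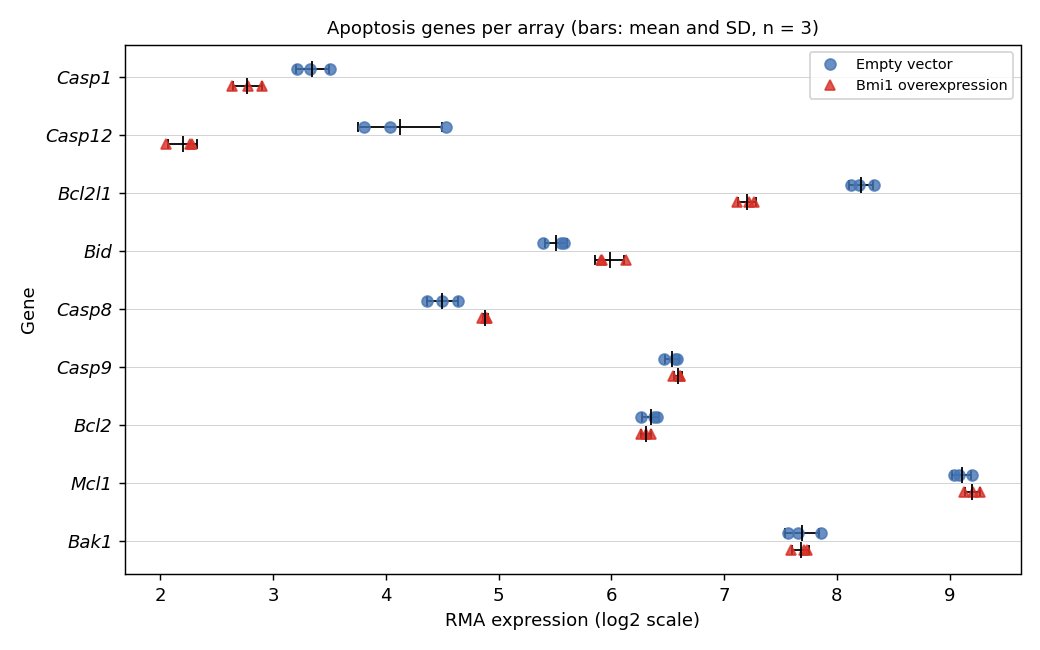
RMA expression on the log2 scale (x axis) in each array for the 4 called members and for Casp8, Casp9, Bcl2, Mcl1 and Bak1 (y axis), with circles for empty vector, triangles for Bmi1 and bars that give each group's mean with its SD (n = 3). The groups are apart for Casp12, Bcl2l1, Casp1, Bid and Casp8 and interleaved for Casp9, Bcl2, Mcl1 and Bak1.

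Among the 6 BH3-only genes, Bid rose and 5 did not pass. Bid had log2 levels of 5.40, 5.55 and 5.58 in the empty vector arrays and 6.13, 5.91 and 5.91 in the Bmi1 arrays. All Bmi1 arrays were higher, the first one most. The mean went from 5.51 ± 0.10 to 5.98 ± 0.13 (SD, n = 3 each), higher by 0.48 on the log2 scale (SE 0.09, 95% interval 0.25 to 0.71) or 1.39-fold, with an adjusted p of 0.042 from limma. Like Casp1, it lost the call without any 1 of the arrays (adjusted p 0.082 to 0.12), with differences of 0.40 to 0.51. Its call was also lost after median centring, with an adjusted p of 0.074. Bcl2l11, which encodes Bim, had the only difference below 0 among these 6, -0.23, with a 95% interval from -0.57 upward that holds 0 (adjusted p = 0.45). Pmaip1 (Noxa) and Bbc3 (Puma) are BH3-only genes too, but were counted in a further list and named after their values were seen. Pmaip1 was lower in all Bmi1 arrays, with a difference of -0.39 (adjusted p = 0.071 from limma). Bbc3 had a difference of -0.06 (adjusted p = 0.78). Bmf, a BH3-only protein tied to the cytoskeleton, was higher in all Bmi1 arrays by 0.24 (adjusted p = 0.24). Bad, Bik and Hrk had differences of 0.03, 0.12 and 0.04, with adjusted p-values of 0.86, 0.52 and 0.77.

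None of the 4 pro-apoptotic effectors and Bcl2-like genes passed in limma, 1 had an unadjusted p under 0.05, and the equal-variance test of the methods, with Benjamini-Hochberg adjustment, called that 1, Bok. Bak1, which forms pores in the outer mitochondrial membrane, had log2 levels of 7.86, 7.56 and 7.66 with empty vector and 7.73, 7.71 and 7.59 with Bmi1. The arrays were interleaved (difference -0.01, 95% interval -0.25 to 0.22, adjusted p = 0.96), and the sign of so small a difference turned under several other settings. Bok, a relative of Bak1, had log2 levels of 7.27, 7.17 and 7.16 with empty vector and 7.47, 7.50 and 7.48 with Bmi1. Its groups did not overlap, and the difference of 0.28 had an adjusted p of 0.062 from limma. Bcl2l13 and Bcl2l14 had differences of 0.05 and 0.04, with adjusted p-values of 0.78 and 0.88.

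The remaining groups hold the brakes on caspases and the platforms on which they assemble. Of 5 inhibitor of apoptosis (IAP) genes and their antagonists, 0 passed in limma or in the adjusted test of the methods, and 1 had an unadjusted p under 0.05. That one was Birc3, which encodes cIAP2, with log2 levels of 3.98, 3.69 and 3.60 with empty vector and 3.27, 3.41 and 3.36 with Bmi1. All Bmi1 arrays were lower, and the difference of -0.41 (95% interval -0.68 to -0.14, adjusted p = 0.11) had the largest size among the 30 members that did not pass. Its neighbour and relative Birc2 (cIAP1) had a difference of 0.16 (adjusted p = 0.55), and a further Birc2 probe set one of -0.05 (adjusted p = 0.81). Xiap, which binds caspases directly, had a difference of -0.06 (adjusted p = 0.79). Diablo and Htra2, mitochondrial proteins that release caspases from IAPs, had differences of -0.10 and -0.02, with adjusted p-values of 0.57 and 0.91. Groups overlapped for all 4 of these.

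Of the 5 measured death receptor adaptors and kinases, 0 passed in limma or in the adjusted test of the methods, and 1, Tradd, had an unadjusted p under 0.05. Tradd, the adaptor of the TNF receptor, had log2 levels of 5.77, 5.60 and 5.67 with empty vector and 5.94, 5.87 and 5.89 with Bmi1. All Bmi1 arrays were higher, by a mean of 0.22 (adjusted p = 0.15). Cradd, the adaptor of Casp2, was likewise higher in all Bmi1 arrays, by 0.21 (adjusted p = 0.26). Fadd had a difference of 0.04 (adjusted p = 0.76), Ripk3, the kinase of necroptosis, one of 0.06 (adjusted p = 0.74), and Cflar, the decoy that restrains Casp8, one of -0.09 (adjusted p = 0.63). Cflar has 2 further probe sets of its own, with differences of -0.10 and -0.23, which did not pass either. The one at -0.23 was lower in all Bmi1 arrays, with an unadjusted p of 0.043 from limma. Both mitochondrial death effectors missed the threshold in limma and in the adjusted test of the methods, 1 with an unadjusted p under 0.05. That was Endog, a mitochondrial nuclease, with all Bmi1 arrays lower and a difference of -0.25 (adjusted p = 0.23), while the difference of Aifm1 was -0.03 (adjusted p = 0.86).

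For the 30 members that did not pass, the arrays set limits on how large a change could be. The 95% interval lay within 0.5 on either side of 0 for 26 of them and within 0.25 for 10. Standard errors over all members ran from 0.06 to 0.19. Of the 34, 10 had a mean log2 level under 5, among them Casp12 and Casp1, and 24 lay at 5 or above.

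**Figure D3:**
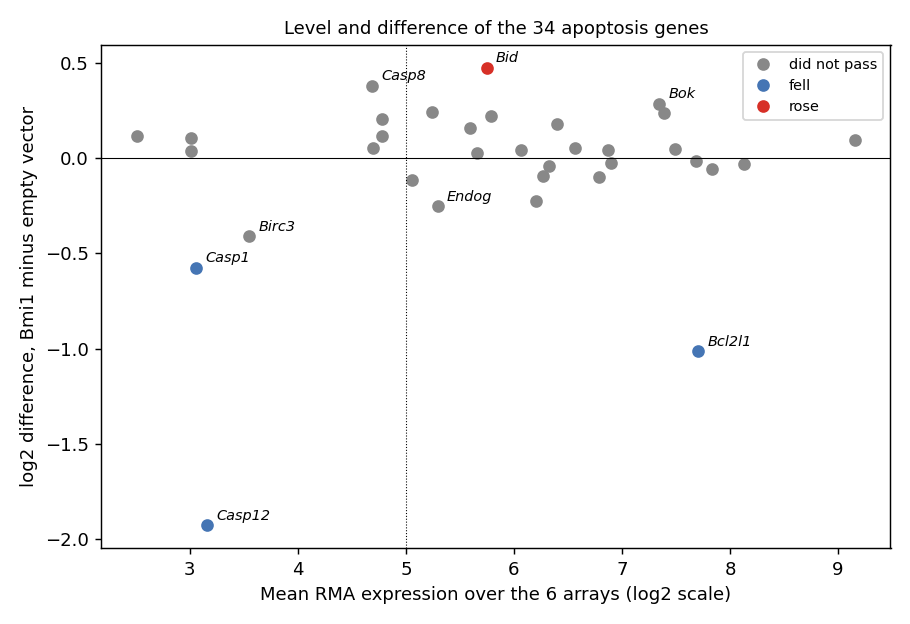
Mean RMA expression over the 6 arrays on the log2 scale (x axis) and log2 difference, Bmi1 minus empty vector (y axis), with 1 point per measured member and a dotted line at a level of 5. Casp12 and Casp1 fell at levels near 3, Bcl2l1 fell at a level near 8, and most of the 34 points lie within 0.25 of the zero line.

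The inflammatory caspases lie in 1 stretch of chromosome 9, and their neighbours there, chosen after the values were seen, were read in RefSeq gene order. Gria4, a glutamate receptor subunit encoded next to Casp1, had log2 levels of 7.90, 8.25 and 8.50 with empty vector and 3.25, 3.08 and 3.01 with Bmi1. It fell by 5.10 on the log2 scale (adjusted p = 2.8e-04 from limma). Pdgfd, which encodes a platelet-derived growth factor and follows Casp12, fell by 1.05 (adjusted p = 0.0012), with log2 levels of 3.69, 3.60 and 3.69 with empty vector and 2.57, 2.55 and 2.70 with Bmi1. On the far side of Gria4, Msantd4 fell by 0.93 (adjusted p = 0.0035) and Aasdhppt fell by 0.45 (adjusted p = 0.012), and Kbtbd3 between them was lower in all Bmi1 arrays with a difference of -0.54, short of the threshold (adjusted p = 0.095). From Aasdhppt to Pdgfd, then, 6 of 8 measured genes fell, and Casp4 and Kbtbd3 did not pass. The ends of this stretch were set at the outermost called genes, so this count follows in part from where they were drawn.

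By that choice of ends, no gene read beyond this stretch passed. On the side of Gucy1a2 there were 4 further measured genes, and on the side of Ddi1, which runs on to the matrix metalloprotease genes, there were 9 up to Mmp10. Counting the 5 measured genes on either side of the 3 caspases, 4 of 10 fell and 0 rose. With up to 10 on either side, 4 of 18 fell and 0 rose. Over chromosome 9 as a whole, 54 of 1167 named genes fell (4.63%) and 41 rose. Birc2 and Birc3 lie on the same chromosome outside the stretch. Without empty vector replicate 1, empty vector replicate 3 or Bmi1 replicate 2, Aasdhppt lost its call, with adjusted p-values of up to 0.055, while Msantd4, Gria4 and Pdgfd passed in all 6 such fits.

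**Figure D4:**
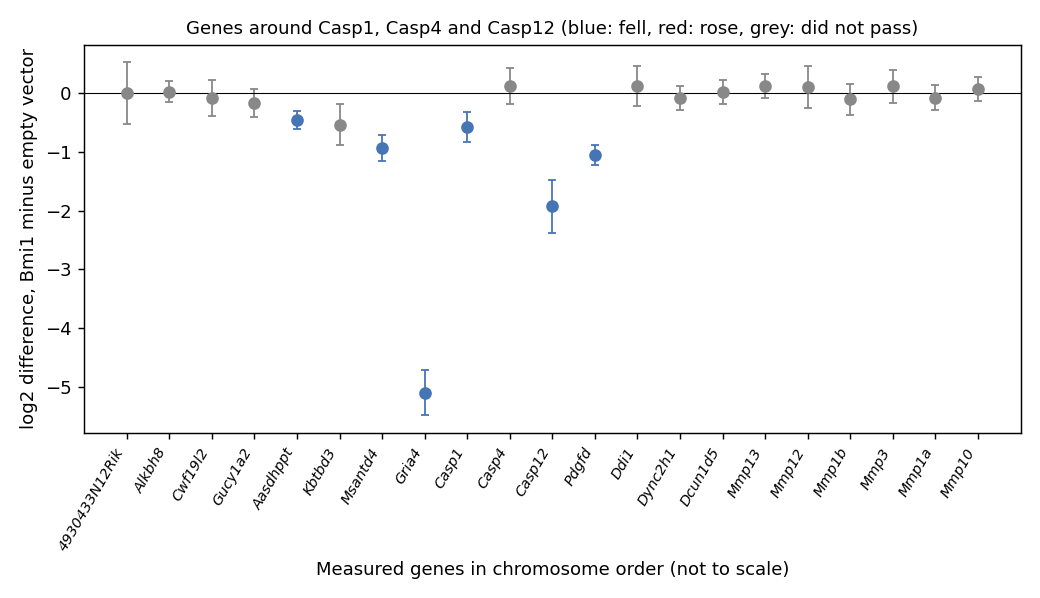
The log2 difference, Bmi1 minus empty vector (y axis), for measured genes around the Casp1, Casp4 and Casp12 cluster in chromosome order (x axis, not to scale), with bars for the 95% confidence interval. Genes that fell run from Aasdhppt to Pdgfd, with Gria4 lowest at -5.10, and all genes drawn outside that stretch lie near 0.

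Around the other called members the neighbours did not share 1 direction. Next to Bcl2l1 on chromosome 2, Id1, an inhibitor of differentiation factors, fell by 0.62 (adjusted p = 0.0080) and Tpx2, a spindle protein, rose by 0.35 (adjusted p = 0.039), while Cox4i2 and Mylk2 did not pass. The rise of Tpx2 was lost in all 6 fits without 1 array. None of the neighbours read around Bid (Atp6v1e1, Bcl2l13, Mical3 and Pex26) passed.

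Other genes of the pathway were taken from 3 further lists. Their counts stand beside 7.35% of named genes called, 2.98% higher and 4.37% lower with Bmi1. Of 40 measured other core apoptosis genes, 1 rose, 1 fell and 38 did not pass, with a median log2 difference of -0.03. At an unadjusted p under 0.05 from limma there were 14 of the 40, beside 22.7% of named genes. Groups did not overlap for 5 with all Bmi1 arrays higher and 13 with all lower, beside 31.3% of named genes in either direction. The rise was in Nol3, which encodes ARC, an inhibitor of both death routes. Its log2 levels were 5.71, 5.91 and 5.85 with empty vector and 7.82, 7.64 and 7.72 with Bmi1. The log2 difference was 1.90 (standard error 0.09, 3.74-fold, adjusted p = 4.9e-04 from limma), about as large in size as that of Casp12 but in the other direction. Bag3, a co-chaperone with anti-apoptotic activity, fell by 0.54 (adjusted p = 0.024), a call lost in 5 of the 6 fits without 1 array.

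Of 34 measured death receptors, ligands and NF-kB genes, 4 fell, 1 rose and 29 did not pass, with a median of -0.08. There were 11 at an unadjusted p under 0.05 from limma, beside 22.7% of named genes. Groups did not overlap for 3 with all Bmi1 arrays higher and 11 with all lower, beside 31.3% of named genes in either direction. Fas, the receptor of the classical death signal, had log2 levels of 5.30, 5.39 and 5.11 with empty vector and 4.59, 4.39 and 4.71 with Bmi1. All Bmi1 arrays were lower, and the mean fell by 0.70 (adjusted p = 0.021), although the call was lost in 4 of the 6 fits without 1 array. The death-domain receptor gene Tnfrsf21 (DR6) fell by 0.60 (adjusted p = 0.0053), the receptor gene Eda2r fell by 0.88 (adjusted p = 0.019, lost in 3 of 6 such fits) and the NF-kB subunit gene Nfkb2 fell by 0.56 (adjusted p = 0.0062). Map3k5, which encodes ASK1, a stress kinase upstream of JNK, rose by 1.12 (adjusted p = 0.0023), with log2 levels of 4.83, 4.71 and 4.67 with empty vector and 5.80, 6.02 and 5.75 with Bmi1. Among receptor genes of the same list that did not pass, differences ran on both sides of 0, such as -0.36 for Ltbr and 0.11 for Edar.

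Of 31 measured upstream regulators of the Bcl2 family, 5 fell, 2 rose and 24 did not pass, with a median of -0.07. There were 15 at an unadjusted p under 0.05 from limma, beside 22.7% of named genes. Groups did not overlap for 5 with all Bmi1 arrays higher and 13 with all lower, beside 31.3% of named genes in either direction. Trp53inp1, a p53-induced cofactor of cell death, fell by 0.74 (adjusted p = 0.0098), Trp53bp2, a p53-binding protein that favours death genes, fell by 0.57 (adjusted p = 0.010) and Zmat3, a p53 target, fell by 0.60 (adjusted p = 0.037, lost in 5 of 6 fits without 1 array). Mdm2, the ubiquitin ligase that restrains p53, fell by 0.57 (adjusted p = 0.0072). Perp, a p53 target of cell junctions, rose by 0.56 (adjusted p = 0.010), and the JNK gene Mapk10 by 0.51 (adjusted p = 0.011). Bcl6, a transcriptional repressor outside the rule for named genes and named after its value was seen, fell by 0.36 (adjusted p = 0.041), a call lost in all 6 fits without 1 array. The other calls were lost in 1 such fit for Perp and Trp53bp2 and in 2 for Mapk10. Genes of these lists without a probe set of their own were not analysed here.

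**Figure D5:**
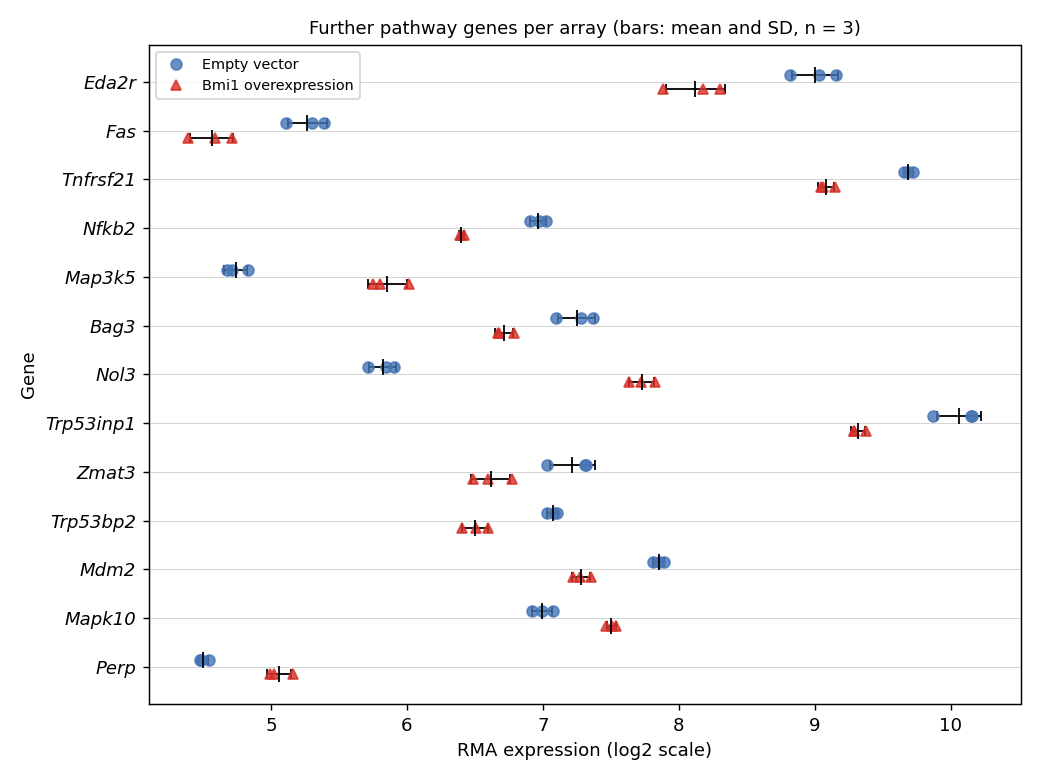
RMA expression on the log2 scale (x axis) in each array for the 13 named genes of the 3 further lists (y axis), with circles for empty vector, triangles for Bmi1 and bars that give each group's mean with its SD (n = 3). Circles and triangles are apart in every row, with Nol3, Map3k5, Mapk10 and Perp higher and the others lower with Bmi1.

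Inflammatory caspases are also typical of immune cells, so markers of other cells were read beside them. Of 16 microglia and macrophage markers, 0 passed in limma or in the adjusted test of the methods and 0 had an unadjusted p under 0.05. Their mean log2 levels ran from 2.50 to 4.66, and their summed linear signal ran from 194 to 215 in the empty vector arrays and from 202 to 211 in the Bmi1 arrays. These markers were dim in both groups, so a fall in them could be missed. Whether immune cells contribute to the levels of Casp12 and Casp1 was not tested. Of 10 endothelial markers, 0 passed in either test, 1 had an unadjusted p under 0.05, and their summed signal ran from 158 to 167 and from 172 to 176. Of 13 pericyte and fibroblast markers, 2 fell, Twist1 with a log2 difference of -2.40 (adjusted p = 0.0054) and Acta2 with one of -1.34 (adjusted p = 0.023), and the summed signal ran from 849 to 1093 with empty vector and from 519 to 649 with Bmi1. That sum was lower in all Bmi1 arrays, as were Casp12, Casp1 and Bcl2l1. Acta2 was the brightest of the list and weighs most in this linear sum, with mean log2 levels of 9.02 with empty vector and 7.68 with Bmi1. The other 11 markers of the list did not pass, 8 of them with differences above 0, and the median of the list was 0.06. Any part of the lower sum in these results was not tested. Among other lineages, 4 of 11 neuron and neuroblast markers rose and 1 fell, and 3 of 11 oligodendrocyte lineage markers and 2 of 9 astrocyte markers rose. Of 7 ependymal markers 0 passed in either test, with 1 at an unadjusted p under 0.05. Over all named genes, 2.98% rose and 4.37% fell in limma.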

How the data were processed

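Neurosphere RNA (300 ng per array) was hybridised to 6 Affymetrix Mouse Gene ST 1.0 arrays, 3 per group. The values deposited by the authors are log2 expression levels, 1 per probe set. The submitters' processing notes name RMA and Affymetrix Expression Console, with versions not given in the sources used here. RMA includes quantile normalization, so shifts shared by all genes are not visible. Detection calls were not used here. Precision is limited by how many arrays there are.

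The platform annotation gave the gene names: 21789 of 35557 name 1 gene, 1621 several and 12147 none, and only the first were used. The main comparison was a two-sided limma fit (version 3.58.1, R 4.3.3) by lmFit and eBayes without covariate or filter. P-values were adjusted by Benjamini-Hochberg across the 35557 probe sets, and an adjusted p under 0.05 was called. The code was tested on simulated data. The t-test of the methods (p under 0.001 and a log2 difference of at least 1) was an alternative, with the other tests, filters, normalizations and left-out arrays of the closing section. Members and lists were chosen with earlier results of these data known. All members could be named, with values in every array for called ones and for Bcl2, Bcl2l1, Mcl1, Casp8, Casp9 and Bak1, and from each further list up to 6 called genes with the smallest adjusted p. Neighbours and genes of the chromosome 9 stretch were named after their values were seen. Gene order and promoters came from RefSeq GRCm38.p6, since the annotation used gives no build, and no coordinates of probe sets were used. Figures were drawn with matplotlib 3.10.9.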

Additional observations from a re-analysis of the deposited data

How the results depend on the processing

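Of the 4 called members, Casp12 and Bcl2l1 were called in every fit without 1 array, and Casp1 and Bid in none of the 6. The number of members called was thus 2 to 2 over these fits, beside 2.74% to 3.59% of all probe sets. The number was 7 with 1 probe set per gene (12.7% of genes called) and 7 with the mean of a gene's probe sets (12.8%), adding Casp8, Bok and Birc3. It was 0 by Welch's test with Benjamini-Hochberg adjustment (8 at an unadjusted p under 0.05), beside 0.591% of all probe sets. By the methods' t-test it was 1, Bcl2l1, beside 0.844%. With median centring it was 3 (3 fell, 0 rose), beside 5.79% of all probe sets. With quantile normalization it was 4 (Bok in place of Bid), beside 5.76%. Among probe sets with a mean of at least 5 it was 4 of 24 members tested, below the 22.6% of all probe sets called there. Of these 4, 3 rose (Bid, Bok and Tradd) and 1 fell (Bcl2l1). Casp12 and Casp1 were not tested in that fit. Over all alternatives adjusted p-values ran from 1.4e-04 to 0.144 for Casp12 and from 1.0e-04 to 0.0505 for Bcl2l1. Median centring moved the median difference of all probe sets from 0.02 to -0.03. Differences near 0 changed sign: Casp9 to -0.00022 with median centring, and Bak1 to 0.0415 with quantile normalization and 0.0058 with array weights, with a range of -0.0786 to 0.0682 over the fits without 1 array. Over all probe sets, 2025 were called, 210 by Welch's test, 300 by the methods' t-test, 3424 with a mean of at least 5, 3190 with a trended variance prior and 974 to 1275 without 1 array. With the replicate number as a block, 2 members (Casp12 and Bcl2l1) and 850 probe sets were called. Same-numbered arrays showed no sign of pairing: their deviations from the group means correlated at -0.0319 to 3.39e-05, and 0 samples correlated best with their own number. Since no source gives which mice gave which culture, this check cannot show that the cultures were unpaired. The causes of these changes were not tested. Levels under about 5, including those of Casp12 and Casp1, limit how well differences are measured.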
